A study of Mus musculus with 4 samples.

Results

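G protein-coupled receptors pass their signal on through a small set of proteins inside the cell, and 46 genes of this set were followed here in mouse mammary basal cells. They encode G protein alpha subunits, adenylyl cyclases, cAMP-dependent protein kinase (PKA), phosphodiesterases, exchange factors for Rap, CREB-type transcription factors with their coactivators and target genes, receptor kinases and arrestins, and phospholipase C beta. The genes were listed by name, with earlier results of these data known, and all 46 were found among the 17630 genes of the expression tables. Of those 17630 genes, 17512 were matched to a symbol.

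The study examined how the sympathetic nerves act on the mammary gland and its stem cells, and RNA-seq was made from 4 libraries, 1 for each condition. The control sorted library came from basal cells of wild-type mice without treatment, and the 6-OHDA sorted library from basal cells of wild-type mice given 6OHDA (6-hydroxydopamine, written 6-OHDA here), a toxin taken up by noradrenergic nerve endings that destroys them. The control colony library and the SP colony library came from wild-type basal cells grown as colonies in Matrigel, without agonist (title number 0) and with salbutamol+phenylephrine (SP, title number 200, with no unit given), agonists of adrenergic receptors. The basal gate of the study takes lineage-negative cells with CD24 and high CD29, and antibodies to CD31, CD45 and TER119 are named for the lineage stain. The methods describe 6-OHDA injection at 3 weeks of age for puberty and other doses for pregnancy, so the age of the mice in these libraries is not given in the sources used here, nor is the number of animals pooled.

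Ligand binding lets a receptor load its G protein with GTP. Gs (Gnas) switches adenylyl cyclases on and Gi switches several of them off, so that the level of cAMP is set between the cyclases that make it and the phosphodiesterases that break it down; cAMP frees the catalytic subunits of PKA, which phosphorylate CREB and lead to transcription of early genes such as Nr4a1. Gq and G11 act through phospholipase C beta, which releases inositol trisphosphate and diacylglycerol and thereby raises calcium and protein kinase C activity, and in the mammary gland the basal cells contract to oxytocin through this route.

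Levels are FPKM (fragments per kilobase of transcript, relative to all mapped fragments), so they can be compared between genes. Where 4 FPKM values follow each other, they are given in the order control sorted, 6-OHDA sorted, control colony, SP colony. Differences between 2 libraries are differences of log2(FPKM + 1), which understate the change of low genes. A gene was compared where its mean FPKM over both libraries was at least 1, and counted as higher or lower where the difference was over 0.3 in size. This is the fold threshold in a legend of the study, which used it together with an adjusted P-value, so the counts are not the study's calls. Counts at a threshold of 1 stand beside it. There were no replicates, so no test was made, and each difference is one between 2 libraries with an unknown spread between mice or cultures. The FPKM values summed to 508071, 517504, 577631 and 588202 over all genes, and the 46 genes to 2206, 2144, 1282 and 1211 FPKM. From the steps between low values of genes with a single transcript, 1 FPKM on 1 kilobase stood for about 16.5 to 18.0 fragments with fragments taken to be 250 bases long. The lengths of the 46 genes were not used, so fragment counts are not given for them.

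Between freshly sorted cells with and without 6-OHDA, most of the signaling genes lay close together. Phospholipase C beta genes (Plcb1, Plcb4), the Gi subunit Gnai1, the PKA subunit Prkar2b, the exchange factor Rapgef3 and the receptor kinase Grk6 were higher in the 6-OHDA library, and the cyclase Adcy5, the phosphodiesterase Pde4d and the exchange factor Rapgef4 were lower. Of the 46 genes, 44 passed the filter, and 6 (13.6%) were higher and 3 (6.8%) lower, against 15.8% higher and 8.35% lower among all 11749 genes compared, so the shares were near those of all genes. Their median difference was 0.06, as was that of all genes. At a threshold of 1, 0 of the 44 were higher or lower, against 1.05% and 0.902% of all genes. With a scaling that sets the median ratio of the compared genes to 1 (median ratio scaling), 6 were higher and 6 lower (all genes 11.7% and 11.5%), the added ones being Adcy4, Crtc2 and Nr4a2. With a pseudocount of 5 in place of 1, Gnai1, Plcb1 and Pde4d were past the threshold and the other 6 named genes were within it.

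Between colonies grown with and without SP, the largest differences were a higher Gnai1 and a lower Nr4a1. The CREB coactivators Crtc1, Crtc2 and Crtc3, the target genes Nr4a1 and Rgs2, the phosphodiesterases Pde4a and Pde4d, the desensitisation genes Arrb2 and Grk5, and Plcb1 were lower in the SP library, while Gnai1, Adcy3, Pde4b and Akap12 were higher. Of 38 genes that passed the filter, 4 (10.5%) were higher and 10 (26.3%) lower, against 11.7% and 19.8% of all 11849 genes compared, so the share higher was near that of all genes and the share lower above it. The median was -0.11 against -0.07 for all genes. At a threshold of 1, 0 of the 38 were higher or lower, against 2.0% and 1.33% of all genes. After median ratio scaling, 7 were higher and 8 lower (all genes 14.8% each way): Prkar2a, Grk6 and Sik1 were then also past the threshold, and Crtc2 and Crtc3 were within it. With a pseudocount of 5, Gnai1, Nr4a1 and Rgs2 were past the threshold and the other 11 named genes were within it.

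The largest differences were between the culture states. In control colonies against control sorted cells, the early cAMP target genes, Crem, Pde4b, Adcy4, Arrb1 and Akap12 were far lower, whereas Plcb3, Prkar2b, Arrb2 and Grk6 were higher. Of 44 genes compared, 13 (29.5%) were higher and 24 (54.5%) lower, against 55.7% higher and 26.6% lower among all 12244 genes; at a threshold of 1 the numbers were 4 (9.1%) and 16 (36.4%), against 30.7% and 13.2%. The median of all genes was shifted by 0.45 toward the colony library, while that of the 44 genes was -0.39, with a range from -5.18 to 1.42. After median ratio scaling, which removes this shift, 6 (13.6%) were higher and 29 (65.9%) lower, against 39.5% and 40.1% of all genes, and the median was -0.79. Gnaq, Gnai3, Gna11, Adcy3, Adcy7, Pde4a and Creb1 were then no longer among those higher, and Gnai2, Adcy6, Prkacb, Prkar2a and Atf1 were added to those lower. For this comparison the difference after scaling is given in parentheses below, and the counts of the lists are given both ways. The comparison shares its control libraries with the 6-OHDA and SP comparisons, so a difference in a control library enters more than 1 of them.

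**Figure D1:**
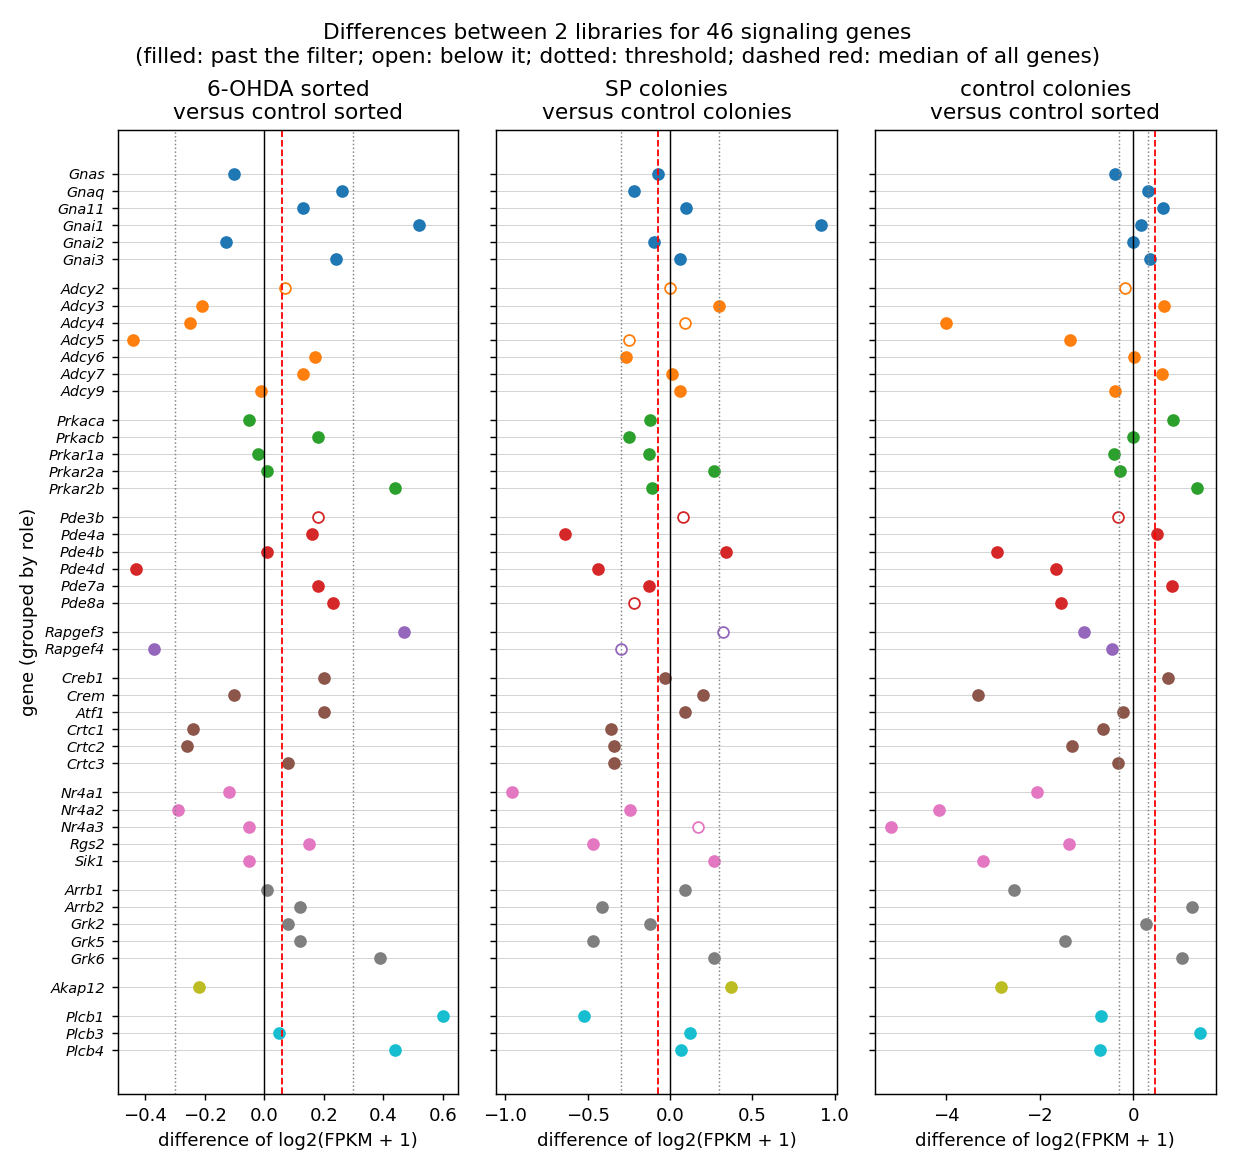
Difference of log2(FPKM + 1) between 2 libraries for each of the 46 genes (rows, grouped and colored by role) in the 3 comparisons (panels, each with its own horizontal scale). Filled points passed the filter and open points did not, dotted lines mark 0.3 and -0.3, and the dashed red line is the median of all genes (0.06, -0.07 and 0.45); in the right panel 24 filled points lie below the lower dotted line.

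The G protein alpha subunits included the most abundant gene of the set. Gnas, which encodes Gs alpha, was listed at 392, 364, 299.6 and 286 FPKM, the highest level of the 46 genes in each library. Its 2 colony values lay below its 2 sorted values, with a culture difference of -0.39 (-0.89 scaled). The Gnas locus also gives rise to overlapping and antisense transcripts, and use of strand in the counting is not given in the sources used here, so its level is uncertain. Among the Gi subunits, which lower cAMP, Gnai2 was the most abundant with 192, 176, 189.6 and 176 FPKM, and it was within the threshold in all 3 comparisons on the deposited scale. Gnai3 was listed at 85.7, 101, 109.9 and 115 FPKM. Its culture difference was 0.36 (-0.15 scaled), so it was called higher on the deposited scale and its sign turned with the scaling.

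Gnai1, the least abundant Gi subunit in each library, had levels of 6.67, 10.0, 7.64 and 15.3 FPKM. It was higher in both treated libraries than in their controls, by 0.52 with 6-OHDA and by 0.92 with SP, and the SP difference was the largest positive one among the 38 genes compared there. Because Gnai2 and Gnai3 were much more abundant, Gnai1 made up 2.3%, 3.5%, 2.5% and 5.0% of the summed FPKM of the Gi subunits. The Gq-type subunits, which switch phospholipase C beta on, were Gnaq with 15.5, 18.8, 19.4 and 16.5 FPKM and Gna11 with 15.4, 16.9, 24.6 and 26.4 FPKM. Gna11 was higher in both colony libraries than in both sorted libraries, with a culture difference of 0.64 (0.16 scaled). Gnaq had a culture difference of 0.30 (-0.18 scaled), again with a sign that turned with the scaling. Neither Gnaq nor Gna11 passed the threshold for 6-OHDA or SP.

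Adenylyl cyclases make cAMP from ATP. The 7 cyclase genes together had 46.3, 44.2, 34.4 and 34.5 FPKM, but their makeup differed between the sorted and the colony libraries. Adcy4 was listed at 16.3, 13.5, 0.08 and 0.15 FPKM. It gave 35.2% and 30.6% of the cyclase sum in sorted cells and 0.2% and 0.4% in colonies, where it was near 0, and the culture difference was -4.00 (-4.26 scaled). Adcy5 was listed at 2.21, 1.37, 0.25 and 0.05 FPKM. It was low in each library and lowest in the colonies, with differences of -0.44 for 6-OHDA and -1.36 (-1.59 scaled) for culture.

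Adcy3 and Adcy7 lay higher in colonies on the deposited scale and were within the threshold there after scaling. Adcy3 was listed at 4.96, 4.14, 8.41 and 10.6 FPKM, with a culture difference of 0.66 (0.22 scaled). In the SP library it was higher by 0.30, just past the threshold, and within it when both colony libraries were rescaled to the same sum. Adcy7 was listed at 6.88, 7.63, 11.0 and 11.0 FPKM, with a culture difference of 0.60 (0.15 scaled) and no difference past the threshold for either treatment. Adcy6 was the most abundant cyclase in control colonies, with 11.9, 13.5, 12.0 and 9.78 FPKM, and was within the threshold in each comparison on the deposited scale. Adcy9 was listed at 3.84, 3.81, 2.66 and 2.81 FPKM and was lower in control colonies, at -0.40 (-0.79 scaled). Adcy2 stayed below the filter with at most 0.22 FPKM.

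PKA is a complex of catalytic subunits held inactive by regulatory subunits until cAMP binds. Prkar1a, the type I regulatory subunit, was the most abundant of its genes with 206, 204, 155 and 142 FPKM. It was highest in the sorted libraries, and lower in control colonies, at -0.41 (-0.91 scaled). Prkar2b, a type II regulatory subunit, was listed at 3.38, 4.96, 10.2 and 9.35 FPKM. Its sorted control value was the lowest of the 4, with a difference of 0.44 for 6-OHDA and 1.35 (0.92 scaled) for culture. The catalytic subunit Prkaca had 18.0, 17.3, 33.1 and 30.5 FPKM, with colony values above both sorted values and a culture difference of 0.85 (0.36 scaled).

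The other catalytic gene, Prkacb, and the regulatory gene Prkar2a ranged from 16.8 to 31.5 FPKM over the 4 libraries and stayed within the threshold in all 3 comparisons on the deposited scale. Of the summed FPKM of both catalytic genes, Prkaca gave 39.4% and 35.5% in sorted cells and 54.5% and 56.9% in colonies. The catalytic genes summed to 45.6, 48.8, 60.8 and 53.6 FPKM and the regulatory genes to 230.2, 229.7, 182 and 171 FPKM. The ratio of catalytic to regulatory mRNA over these genes was thus 0.198 and 0.212 in the sorted libraries and 0.334 and 0.313 in the colony libraries. These sums leave out Prkar1b, a regulatory gene of the wider list below; with it, a choice made after seeing the data, the ratio was 0.182, 0.198, 0.329 and 0.31. A ratio within a library does not depend on a scaling by 1 factor per library, and protein was not measured here. Akap12, a scaffold that anchors PKA near the membrane, was listed at 62.1, 53.1, 7.87 and 10.5 FPKM. It was lower in both colony libraries, at -2.83 (-3.30 scaled) between the controls, and higher with SP than without by 0.37.

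Phosphodiesterases degrade cAMP, and the 6 genes followed here summed to 247, 248, 65.4 and 67.4 FPKM. Pde4b accounted for most of the sorted sum, with 210.1, 211, 27.0 and 34.4 FPKM, or 85.1%, 85.2%, 41.2% and 51.0% of the family. It was close to the same in both sorted libraries and much lower in colonies, with a culture difference of -2.91 (-3.41 scaled) and a difference of 0.34 for SP. Pde4d was listed at 14.4, 10.4, 3.91 and 2.62 FPKM. It was lower in each treated library than in its control, at -0.43 with 6-OHDA and at -0.44 with SP, and lower in control colonies than in sorted cells, at -1.65 (-2.09 scaled). Pde4a was listed at 1.58, 1.89, 2.68 and 1.36 FPKM. Its highest value was in control colonies, which gave differences of -0.64 for SP and 0.51 (0.17 scaled) for culture.

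Pde7a, a cAMP-specific enzyme of another family, was listed at 17.3, 19.7, 31.3 and 28.6 FPKM. It was higher in colonies by 0.82 (0.33 scaled) and, with 47.8% and 42.4% of the family sum there, stood beside Pde4b as a leading phosphodiesterase of the colonies. Pde8a was listed at 3.11, 3.82, 0.41 and 0.21 FPKM and was lower in control colonies, at -1.54 (-1.81 scaled). Pde3b was below the filter in all 3 comparisons, with at most 0.67 FPKM. The Epac genes Rapgef3 and Rapgef4 encode exchange factors through which cAMP activates the small GTPase Rap. Rapgef3 was listed at 2.14, 3.36, 0.51 and 0.89 FPKM and Rapgef4 at 1.51, 0.94, 0.83 and 0.49 FPKM. With 6-OHDA, Rapgef3 was higher by 0.47 and Rapgef4 lower, with a difference of -0.37, both at low levels. In control colonies both were lower, with -1.06 (-1.31 scaled) and -0.46 (-0.72 scaled), and neither passed the filter in the SP comparison.

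CREB-type factors bind cAMP response elements in DNA and are activated by PKA, and the Crtc genes encode coactivators that enter the nucleus when cAMP or calcium rises. Crem, whose internal promoter makes the repressor ICER and is itself a cAMP target, was listed at 61.7, 57.5, 5.32 and 6.24 FPKM. It was high in both sorted libraries and low in both colony libraries, with a culture difference of -3.31 (-3.77 scaled). Creb1 was listed at 8.12, 9.51, 14.1 and 13.8 FPKM and was higher in colonies, by 0.73 (0.26 scaled), within the threshold after scaling. Atf1 ranged from 25.6 to 34.5 FPKM and was within the threshold in each comparison on the deposited scale. Crem therefore held 61.8% and 56.7% of the FPKM of these 3 factors in sorted cells and 11.8% and 13.2% in colonies, where Atf1 led with 56.8% and 57.6%. Isoforms of Crem were not told apart in gene-level values.

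The 3 coactivator genes were each lower in SP than in control colonies. Crtc2, the most abundant, was listed at 44.4, 36.9, 17.2 and 13.4 FPKM. Crtc1 had 7.12, 5.89, 4.19 and 3.05 FPKM and Crtc3 had 11.9, 12.7, 9.30 and 7.15 FPKM. All 3 were lowest in the SP library, with SP differences of -0.36 for Crtc1, -0.34 for Crtc2 and -0.34 for Crtc3. These differences sat near the threshold: after median ratio scaling they were -0.30, -0.28 and -0.27, and Crtc2 and Crtc3 were no longer past it, and after quantile normalization none of the 3 was. Control colonies were lower than control sorted cells, at -1.31 (-1.80 scaled) for Crtc2, -0.65 (-1.07 scaled) for Crtc1 and -0.32 (-0.79 scaled) for Crtc3. For 6-OHDA the 3 genes stayed within the threshold on the deposited scale.

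Genes that CREB is known to switch on included the largest differences of the set with a pseudocount of 1. Nr4a1 encodes an orphan nuclear receptor made soon after many stimuli, and it was listed at 314, 289.8, 74.6 and 37.9 FPKM. Both sorted libraries were high, control colonies were lower, and SP colonies were lowest. The SP difference was -0.96 and the culture difference -2.06 (-2.56 scaled). On the deposited scale with a pseudocount of 1, this SP difference was the largest in size among the 38 genes compared. After median ratio scaling it was -0.89, and that of Gnai1 was 0.98. By level Nr4a1 ranked 230 and 251 among all genes in the sorted libraries, 1165 in control colonies and 2344 in SP colonies. Its relatives Nr4a2 and Nr4a3 were listed at 68.8, 56.1, 2.92 and 2.31 FPKM and at 58.0, 56.0, 0.63 and 0.84 FPKM. Both were high in sorted cells and near or below 3 FPKM in colonies, with culture differences of -4.15 (-4.59 scaled) and -5.18 (-5.52 scaled), and Nr4a3 was below the filter in the SP comparison. The 3 receptors together gave 441, 402, 78.2 and 41.1 FPKM.

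Sik1, a kinase that phosphorylates the Crtc coactivators and so limits their action, was listed at 137, 132, 13.8 and 16.8 FPKM. It had the same pattern between culture states (-3.22, and -3.71 scaled), but its SP value lay above the control colony value, by 0.27, within the threshold. Rgs2, which speeds up GTP hydrolysis on Gq alpha and so shortens its signal, was listed at 30.7, 34.3, 11.2 and 7.81 FPKM. It was lower in SP colonies, at -0.47, and in control colonies against sorted cells, at -1.38 (-1.86 scaled). All 5 target genes were within the threshold for 6-OHDA on the deposited scale, with differences from -0.29 to 0.15. They summed to 608, 568, 103 and 65.7 FPKM.

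**Figure D2:**
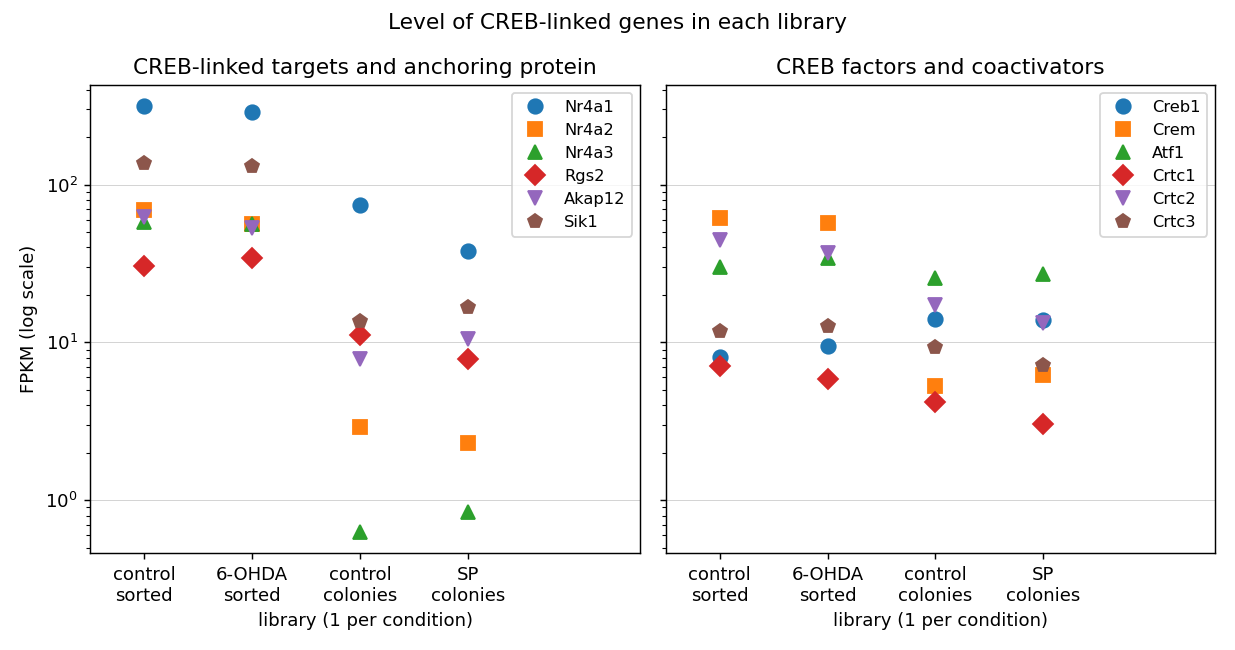
FPKM on a log axis of CREB-linked target genes with the PKA anchoring gene Akap12 (left) and of CREB factors and coactivators (right) in each of the 4 libraries, 1 point per gene and library. The target genes lie between 30.7 and 314 FPKM in the control sorted library and between 0.63 and 74.6 FPKM in the control colony library.

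Receptor kinases (GRKs) phosphorylate active receptors, and arrestins then uncouple them from their G proteins. The arrestin genes exchanged their rank between culture states: Arrb1 was listed at 23.1, 23.2, 3.11 and 3.38 FPKM and Arrb2 at 3.07, 3.42, 8.71 and 6.29 FPKM. Arrb1 held 88.3% and 87.2% of their summed FPKM in sorted cells and 26.3% and 35.0% in colonies. The culture differences were -2.55 (-2.99 scaled) for Arrb1 and 1.25 (0.83 scaled) for Arrb2, opposite in sign under each scaling run. With SP, Arrb2 was lower, at -0.41, while Arrb1 was within the threshold. Of the kinases, Grk2 was the most abundant with 26.7, 28.3, 32.2 and 29.4 FPKM, and it was within the threshold in each comparison on the deposited scale.

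Grk5 was listed at 11.7, 12.8, 3.59 and 2.31 FPKM. It was high in sorted cells, lower in control colonies, at -1.47 (-1.90 scaled) and lowest in SP colonies, at -0.47 against their control. Grk6 was highest in colonies, with 10.3, 13.8, 22.3 and 27.1 FPKM. It was higher with 6-OHDA by 0.39 and higher in control colonies than in sorted cells by 1.04 (0.57 scaled). The GRK sum ranged from 48.7 to 58.8 FPKM across the 4 libraries, while the share of Grk5 in it was 24.0%, 23.3%, 6.2% and 3.9% and that of Grk6 21.2%, 25.2%, 38.4% and 46.0%.

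Phospholipase C beta is the effector of Gq. Plcb3, which led the family, was listed at 8.91, 9.25, 25.5 and 27.8 FPKM. Both colony libraries were well above both sorted libraries. With a pseudocount of 1, the culture difference of 1.42 (0.94 scaled) was the largest positive one among the 44 genes compared. With a pseudocount of 0.1 that of Prkar2b was larger (1.56 against 1.51). Plcb1 was listed at 3.30, 5.50, 1.66 and 0.85 FPKM. It was higher in the 6-OHDA library by 0.60, and lower in SP colonies, at -0.52, and in control colonies, at -0.69 (-1.04 scaled). On the deposited scale with a pseudocount of 1, its 6-OHDA difference was the largest of the 44 genes compared there. With a pseudocount of 5 that of Gnai1 was larger (0.37 against 0.34). After quantile normalization that of Adcy5 was larger in size (-0.55 against 0.5). Plcb4 had 5.35, 7.64, 2.87 and 3.07 FPKM, with a difference of 0.44 for 6-OHDA and -0.71 (-1.11 scaled) for culture. Plcb3 made up 50.7% and 41.3% of the family in sorted cells and 84.9% and 87.7% in colonies, and the family sum was 17.6, 22.4, 30.0 and 31.8 FPKM.

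**Figure D3:**
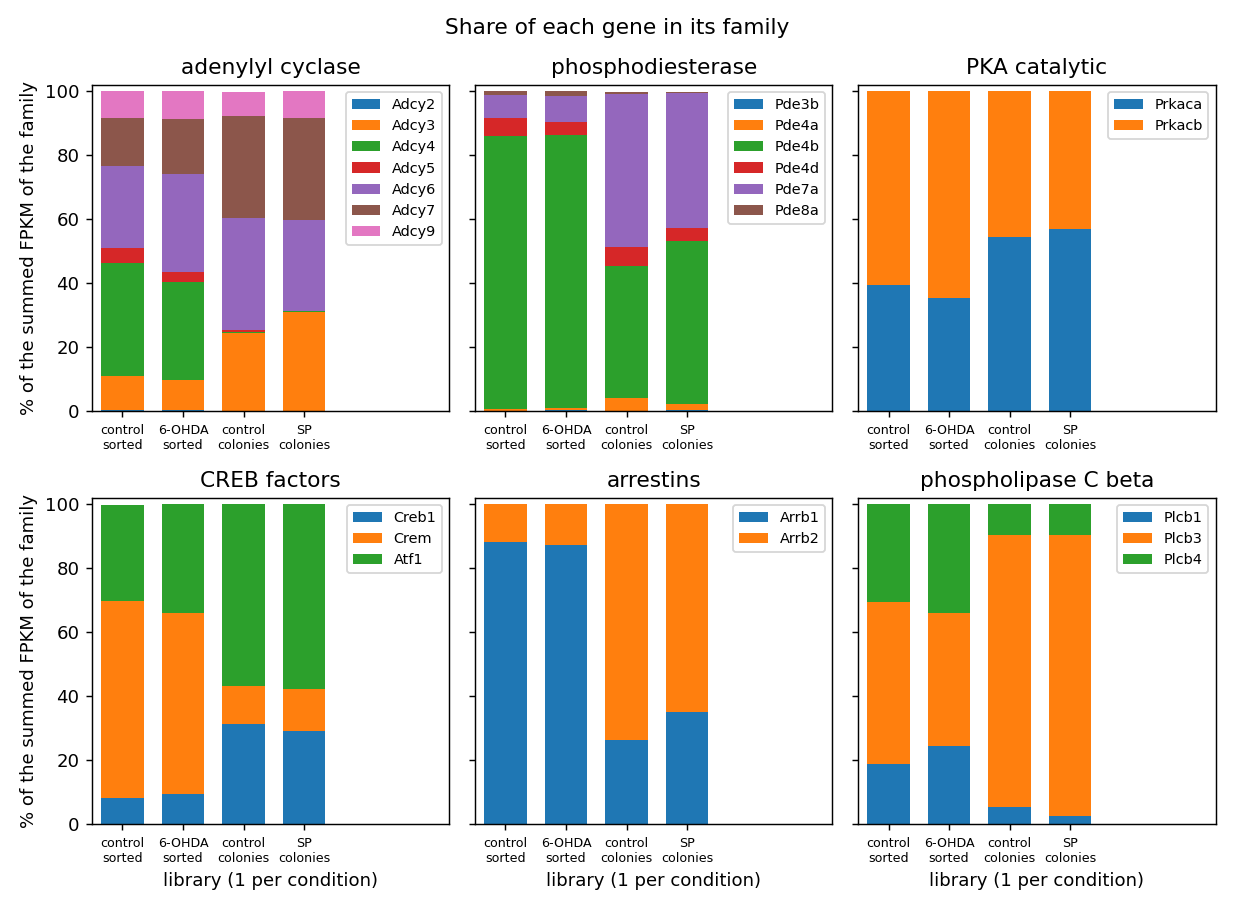
Share of each gene, in percent, of the summed FPKM of its family, as stacked bars for the 4 libraries in 6 families. Among controls, the leading gene differs between sorted cells and colonies for adenylyl cyclases (Adcy4 35.2%, Adcy6 34.9%) and phosphodiesterases (Pde4b 85.1%, Pde7a 47.8%). With or without treatment, it differs for CREB factors (controls: Crem 61.8%, Atf1 56.8%), PKA catalytic subunits (Prkacb 60.6%, Prkaca 54.5%) and arrestins (Arrb1 88.3%, Arrb2 73.7%).

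Upstream of this machinery, 6 alpha adrenergic receptor genes were low. Adra1d was listed at 0.91, 0.82, 1.49 and 0.67 FPKM and Adra2a at 1.34, 0.94, 1.07 and 0.55 FPKM, and the other 4 were below 1 FPKM in each library. Adra1d was lower in SP colonies, at -0.58, and higher in control colonies than in sorted cells, at 0.38 (0.11 scaled). For 6-OHDA, Adra2a was at -0.27, within the threshold on the deposited scale, and at -0.30, just past it, after median ratio scaling.

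A wider list of 45 genes of the cAMP pathway (beta and gamma subunits, further cyclases, phosphodiesterases, anchoring proteins and others) was read beside the set, and 44 of them were matched. With 6-OHDA, 6 of 33 compared were higher and 1 lower (5 and 3 after median ratio scaling), against 15.8% and 8.35% of all genes, with Creb5 (4.35 and 7.83 FPKM, 0.72), Gng11 (17.5 and 29.4 FPKM, 0.71) and Rap1a (31.3 and 43.8 FPKM, 0.47) the furthest from 0. With SP, 1 of 28 was higher and 4 lower, against 11.7% and 19.8% of all genes, led by Gng2 (1.45 and 3.18 FPKM, 0.77), Prkar1b (2.60 and 1.42 FPKM, -0.57) and Akap1 (21.8 and 15.5 FPKM, -0.47). In control colonies against sorted cells, 8 of 32 were higher and 15 lower, against 55.7% and 26.6% of all genes, and 3 were higher and 22 lower after scaling, against 39.5% and 40.1%. Pde2a (11.2 and 0.33 FPKM, -3.20, scaled -3.49), Prkar1b (20.6 and 2.60 FPKM, -2.58, scaled -3.00) and Sik3 (25.3 and 6.10 FPKM, -1.89, scaled -2.35) were furthest from 0 on the deposited scale.

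Of 34 further genes of the Gq pathway (calcium release channels, protein kinase C, diacylglycerol kinases, calcineurin and NFAT, and regulators of G protein signaling), 33 were matched. With 6-OHDA, 2 of 29 were higher and 2 lower (1 and 2 after median ratio scaling; all genes 15.8% and 8.35%), led by Rcan1 (237 and 169 FPKM, -0.49), Rgs5 (19.2 and 27.1 FPKM, 0.47) and Dgka (18.9 and 24.2 FPKM, 0.34). With SP, 2 of 29 were higher and 6 lower (2 and 5 after scaling; all genes 11.7% and 19.8%), so the share lower was near that of all genes, led by Dgkz (86.7 and 45.5 FPKM, -0.91), Gna15 (4.24 and 6.98 FPKM, 0.61) and Arhgef25 (16.9 and 11.1 FPKM, -0.57). Between culture states, 11 of 31 were higher and 14 lower in colonies (all genes 55.7% and 26.6%), and 9 were higher and 18 lower after scaling (all genes 39.5% and 40.1%), led on the deposited scale by Rgs5 (19.2 and 0.10 FPKM, -4.20, scaled -4.46), Rcan1 (237 and 12.7 FPKM, -4.12, scaled -4.60) and Nfatc2 (28.2 and 1.24 FPKM, -3.71, scaled -4.09).

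The low Nr4a1 level in SP colonies stood beside low levels of several other early genes, but not of all. Of 14 other genes known to respond to cAMP, 2 of 12 compared were higher and 7 lower with SP (all genes 11.7% and 19.8%). The 2 higher were Areg (16.9 and 46.2 FPKM, 1.4), the largest difference of the list, and Ptgs2 (44.0 and 77.9 FPKM, 0.81). Gem (3.95 and 1.17 FPKM, -1.19) and Fos (347 and 171 FPKM, -1.01) led those lower. With 6-OHDA, 1 of 12 was higher and 4 lower (all genes 15.8% and 8.35%), and 6 were lower after scaling, led by Inhba (1.65 and 4.39 FPKM, 1.02), Dusp1 (250.2 and 188 FPKM, -0.41) and Junb (801 and 619 FPKM, -0.37). In control colonies against sorted cells, 2 of 12 were higher and 8 lower (all genes 55.7% and 26.6%), and 2 were higher and 10 lower after scaling (all genes 39.5% and 40.1%), led on the deposited scale by Gem (368 and 3.95 FPKM, -6.22, scaled -6.67), Fosb (288 and 19.2 FPKM, -3.83, scaled -4.33) and Inhba (1.65 and 25.9 FPKM, 3.35, scaled 2.94).

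Many of these early genes, the NR4A receptors among them, are also known to be induced while tissue is digested and sorted. A list of 18 genes induced by dissociation, of which 4 are also on the list of cAMP-responsive genes, summed to 5786, 4825, 2235 and 1603 FPKM. Its most abundant gene was Fos in both sorted libraries, Junb in control colonies and Jun in SP colonies, and no gene was at 0. Of the 18, 2 were higher and 16 lower in control colonies than in sorted cells (0 and 16 after scaling; all genes 55.7% and 26.6%, scaled 39.5% and 40.1%), led by Egr2 (124 and 3.66 FPKM, -4.75, scaled -5.20), Fosb (-3.83, scaled -4.33) and Egr1 (507 and 34.9 FPKM, -3.82, scaled -4.32). With SP, 1 was higher and 10 lower (2 and 9 after scaling; all genes 11.7% and 19.8%), led by Btg2 (92.6 and 41.9 FPKM, -1.13), Atf3 (35.2 and 16.6 FPKM, -1.04) and Fos (347 and 171 FPKM, -1.01), and with 6-OHDA 0 were higher and 8 lower (0 and 10 after scaling; all genes 15.8% and 8.35%), led by Hspa1b (238 and 158 FPKM, -0.59), Hspa1a (154 and 103 FPKM, -0.57) and Dusp1 (250.2 and 188 FPKM, -0.41). The part of dissociation in the NR4A, Crem, Sik1 and Pde4b levels was not tested, and sorting cannot be told apart from culture in this comparison.

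Marker RNA of other cell types also differed between the libraries, and in bulk RNA fewer cells of a type and less RNA per cell cannot be told apart. The 6 endothelial markers were all lower in control colonies than in sorted cells, also after scaling, and summed to 261, 256, 1.78 and 1.80 FPKM. With 6-OHDA, 2 of the 6 were higher, Emcn by 0.49 and Tek by 0.43, also after scaling, and 0 lower (all genes 15.8% and 8.35%). Pecam1, which encodes the CD31 of the lineage stain, was the most abundant of them with 107, 93.0, 1.39 and 1.56 FPKM, and 5 of the 6 were under 1 FPKM in each colony library, Cldn5 being at 0 with SP. Of 6 pericyte markers, 5 were compared between culture states, with 1 higher and 4 lower on either scale, and their sums were 40.4, 48.7, 24.7 and 18.7 FPKM. Rgs5, also on the Gq list, led in sorted cells and Notch3 in colonies, and Kcnj8 was at 0 in both colony libraries. Adcy4 and Arrb1, which endothelial cells are known to express, were lower in control colonies like these markers, and the part of endothelial cells and pericytes in the culture differences of the 46 genes was not tested.

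The 10 basal markers summed to 9989, 8921, 6464 and 14298 FPKM, led by Krt14 in each library, and none was at 0. Between culture states, 2 were higher and 6 lower in colonies (2 and 8 scaled; all genes 55.7% and 26.6%, scaled 39.5% and 40.1%), and with SP 7 were higher and 2 lower (8 and 1 scaled; all genes 11.7% and 19.8%). The 10 luminal markers summed to 1392, 1267, 1917 and 1834 FPKM, led by Krt8, so markers of both layers were present in the 4 libraries labelled basal. In control colonies against sorted cells 8 luminal markers were higher and 0 lower (all genes 55.7% and 26.6%). After scaling 5 were higher and 1 lower (all genes 39.5% and 40.1%), with Krt8 at -0.19, Krt18 at -0.08 and Epcam at -0.11. Elf5 (0.63 and 22.5 FPKM), Foxa1 (1.42 and 15.2 FPKM) and Kit (6.05 and 23.3 FPKM) were furthest from 0. The study stained colonies grown from basal cells and counted more luminal than basal cells in control colonies. The part of luminal cells in the culture differences of the signaling genes was not tested. With SP 0 of 10 luminal markers were higher and 4 lower (0 and 3 scaled; all genes 11.7% and 19.8%), namely Foxa1 (-0.80), Esr1 (-0.69), Pgr (-0.47) and Elf5 (-0.30). With 6-OHDA, 1 of 10 basal markers was higher and 2 lower, and 1 of 9 luminal markers higher and 2 lower (all genes 15.8% and 8.35%). The 7 fibroblast markers summed to 183, 379, 40.0 and 12.7 FPKM. Dcn led in both sorted libraries, Col1a2 in control colonies and Pdgfra in SP colonies, where Dpt was at 0. With 6-OHDA, 5 of 7 were higher and 0 lower (all genes 15.8% and 8.35%). With SP, 0 of 5 were higher and 4 lower (all genes 11.7% and 19.8%). In control colonies against sorted cells, 1 of 7 was higher and 5 lower (1 and 6 scaled; all genes 55.7% and 26.6%, scaled 39.5% and 40.1%). The higher one was Pdgfra, by 1.6 (1.18 scaled). The 5 adipocyte markers summed to 211, 376, 37.7 and 1.13 FPKM, mostly Fabp4, with Plin1 and Cfd at 0 in SP colonies. Fabp4 was lower in control colonies than in control sorted cells (210 and 34.4 FPKM). Adipoq (0.18 and 1.66 FPKM) and Plin1 (0.11 and 1.23 FPKM) lay higher there, both below the filter.

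Markers of leukocytes were low, with sums of 10.8, 9.09, 3.30 and 4.46 FPKM over 8 genes, Cd68 being the most abundant, Ptprc at most 0.77 FPKM, and 6 of 8 at 0 in control colonies. The 5 matched Schwann cell and neuron markers summed to 61.5, 76.6, 11.4 and 8.68 FPKM, led by Sox10, and Th was at most 0.04 FPKM. A list of 10 salivary gland secretory genes, which was drawn up with their values known, summed to 5.50, 15693, 4.92 and 3.71 FPKM, with Bpifa2 at 7277 FPKM and 8 of 9 compared genes higher in the 6-OHDA library, where they took up 3.03% of the FPKM sum. After rescaling without them, a choice made after seeing the data, the same 9 of the 46 genes were past the threshold with 6-OHDA. The part of these other cell types in the 6-OHDA and SP differences of the signaling genes was not tested.

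Because the 3 NR4A genes were low together in colonies, their promoters are shown. In RefSeq promoter sequences of GRCm38.p6, from 250 bases before to 50 bases after the transcript start, 35 of the 46 genes were matched, with 58 promoters. The full cAMP response element TGACGTCA was present in 1.79% of all 32851 promoters and in 2 of the 58, both of Prkar1a with overlapping windows. Its shorter core TGACG, searched on both strands (CGTCA on the other) and contained in the full element on each strand, was present in 21 of the 58 promoters (36.2%) and in 20.8% of all promoters. By gene, at least 1 promoter held it in 17 of the 35 (48.6%) and in 23.0% of all 27025 genes, but the 35 genes had more promoters each, which raises such a share. At least 4 copies, a number chosen after the values were seen, were present in 0.231% of all promoters and in 3 of the 58, those of Nr4a1, Nr4a2 and Nr4a3. Crem and Sik1 had no entry. A match is a run of letters and not a shown binding site. The 250 bases before each start are given 5′ to 3′ on the strand of the gene, with TGACG or CGTCA in capitals.
Nr4a1, chr15:101266596-101266845, plus strand: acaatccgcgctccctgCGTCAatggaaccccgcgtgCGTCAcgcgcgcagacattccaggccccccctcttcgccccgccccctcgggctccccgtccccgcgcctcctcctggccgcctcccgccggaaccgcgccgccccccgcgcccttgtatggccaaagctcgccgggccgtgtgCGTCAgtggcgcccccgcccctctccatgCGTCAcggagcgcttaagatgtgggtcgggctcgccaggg
Nr4a2, chr2:57124004-57124253, minus strand: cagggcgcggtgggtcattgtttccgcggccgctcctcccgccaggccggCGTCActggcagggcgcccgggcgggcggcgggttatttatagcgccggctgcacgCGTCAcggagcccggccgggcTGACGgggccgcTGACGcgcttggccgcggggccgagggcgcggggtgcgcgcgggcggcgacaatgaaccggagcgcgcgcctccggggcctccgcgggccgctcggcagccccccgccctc
Nr4a3, chr4:48045055-48045304, plus strand: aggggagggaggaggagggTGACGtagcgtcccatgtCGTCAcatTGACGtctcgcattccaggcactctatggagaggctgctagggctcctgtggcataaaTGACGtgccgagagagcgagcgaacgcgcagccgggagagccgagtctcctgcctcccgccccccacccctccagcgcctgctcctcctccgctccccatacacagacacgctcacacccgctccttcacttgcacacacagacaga
The cores of Nr4a1 begin 233, 213, 69 and 40 bases before the start, those of Nr4a2 200, 144, 123 and 111, and those of Nr4a3 231, 213, 205 and 147.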

How the data were processed

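RNA-seq libraries from sorted basal cells (control, 6-OHDA) and from basal colonies (control, SP) were compared, with 1 library per condition. The authors deposited FPKM values with 2 decimals for 17630 genes. The submitters' processing notes name Bowtie2, RSEM 1.3.1, DESeq2 1.4.5 and mm10. No annotation or use of strand is given there. Gene numbers were matched to symbols with RefSeq (GRCm38.p6), and 118 were not matched. Differences of log2(FPKM + 1) were computed where the mean FPKM was 1 or more and counted past 0.3 and past 1. FPKM are not counts, so no count test was run. Members and lists were chosen with earlier results of these data known. Each of the 46 genes past the filter and 0.3 in a comparison was named with its 4 values, and of each wider pathway list the 3 largest differences. Akap2, Rgs18 and Dbh were not analysed here. Alternatives were pseudocounts of 0.1 and 5, no filter, a mean FPKM of at least 5, rescaling to the same sum, median ratio, quantile normalization and a threshold of 1. Rescaling without salivary genes and a regulatory sum with Prkar1b were chosen after seeing the data. Counting was run on simulated libraries that held known changes and a common scaling difference. Recovery of the changes was checked there for median ratio scaling only, not for the deposited scale. Depth was estimated from 301 to 322 genes per library, with fits scoring 0.45 to 0.52, where 1 is perfect. Python 3.11.15, numpy 2.4.6, pandas 2.3.3 and matplotlib 3.10.9 were used.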

Additional observations from a re-analysis of the deposited data

How the results depend on the processing

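The count of signaling genes past the threshold depended on the pseudocount, the filter and the scaling. With 6-OHDA, the 6 genes higher and 3 lower became 2 and 1 with a pseudocount of 5, 3 and 1 at a mean FPKM of at least 5 (34 genes compared), and 0 and 0 at a threshold of 1; the number lower was 6 after median ratio scaling and 7 after quantile normalization. With SP, the 4 higher and 10 lower became 1 and 2 with a pseudocount of 5 and 0 and 0 at a threshold of 1; the number lower was 5 at a mean FPKM of at least 5, and the number higher was 7 after median ratio scaling and 7 after quantile normalization. Between culture states, the 13 higher became 6 after median ratio scaling, 7 after quantile normalization and 4 at a threshold of 1, while the 24 lower ranged from 16 to 29 over all alternatives. The culture difference of Gnaq turned to -0.18 (median ratio) and -0.05 (quantile), and that of Gnai3 to -0.15 (median ratio). A larger pseudocount shrinks differences of low genes and a stricter filter removes them by construction; for the scalings, the cause was not tested. Of the named genes, 3 of 9 (6-OHDA), 3 of 14 (SP) and 27 of 37 (culture) kept direction and threshold side under all pseudocounts, filters and scalings that gave a value, and 0, 0 and 2 reversed under any. No paired analysis was possible because each condition has 1 library.

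At an assumed fragment length from 150 to 300 bases, 1 FPKM on 1 kilobase stood for 15.0 to 18.9 fragments, a rough estimate. No interval for counting error was computed for any gene.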
